A study of Mus musculus with 15 samples.

Results

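The genes described here are 48 members of the basic leucine zipper (bZIP) family of transcription factors: ATF4, the CHOP protein encoded by Ddit3, and the factors that can pair or compete with them. They were chosen by gene symbol, and all 48 were present among the 23337 genes of the count table. RNA was counted in 15 libraries of mouse heart muscle cells, 5 for each of 3 adeno-associated virus (AAV) vectors. One vector carried ATF4 joined to GFP by a 2A peptide, the second carried DDIT3 joined to GFP in the same way, and the third, the control, carried GFP alone. Every mouse was of the Rosa-Cas9GFP strain, so that Cas9 and a GFP reporter were shared by all groups. The vectors were given on postnatal day 1 and the cells were taken at 4 weeks of age by Langendorff perfusion and sorted. The promoter of the vectors is not stated in the sources used here. Whether each library stands for its own animal is not in the labels either, and the p-values here measure only the spread between these samples, which may be technical. In RNA from sorted cells, fewer cells of a type and less RNA per cell cannot be told apart.

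Proteins of the bZIP family bind DNA as dimers: a leucine zipper joins the subunits and the adjoining basic region reads the sequence. ATF4 is the translated output of the integrated stress response, in which phosphorylation of eIF2alpha slows general translation while ATF4 is still made. It pairs with C/EBP proteins on composite sites in genes that make and import amino acids, and among its known targets is Ddit3, whose product CHOP lacks ordinary DNA contacts in its basic region and acts mainly by pairing with C/EBP and ATF4. Other members sense other stresses. ATF6 and the CREB3 proteins are held in the endoplasmic reticulum and are cut in the Golgi. The CNC factors pair with small MAF proteins on antioxidant elements, and the AP-1 proteins follow growth and stress kinases.

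Libraries held 6217744 to 8317249 counts. Of the 48 members, 36 passed the filter on low counts and were tested, and 12 did not. Summed over 12 genes, cardiomyocyte markers held 100426 to 111105 CPM (the count scaled to the library total after TMM normalisation) with ATF4, below all GFP libraries (123442 to 152049) and all DDIT3 libraries (128998 to 138709). The defining endothelial markers were also present and were higher with ATF4, at 1399 to 2034 CPM summed over 14 genes against 605 to 1232 with GFP and 601 to 1048 with DDIT3, and 12 of the 14 were called higher with ATF4 than with GFP. Of 12 cardiomyocyte markers, 6 were lower and 1 higher with ATF4 than with GFP, and of 11 pericyte and smooth muscle markers 5 were higher. The summed CPM of these 11 overlapped, at 3728 to 4612 with ATF4, 3817 to 4345 with GFP and 3723 to 4350 with DDIT3. Of all genes tested, 16.5% were called higher and 15.6% lower with ATF4 than with GFP. Of 12 tested fibroblast markers, 2 were higher and 1 lower, with summed CPM of 506 to 1080.0 with ATF4, 401 to 889 with GFP and 325 to 622 with DDIT3. For ATF4 against DDIT3, 13 of 14 endothelial, 5 of 12 fibroblast and 6 of 11 pericyte markers were higher, 1 fibroblast marker was lower, and 5 of 12 cardiomyocyte markers were lower. In that comparison 17.8% of all genes were called higher and 16% lower. The part of other cell types in the results below was not tested. Leukocyte markers stayed low, at 11.9 to 28.4 CPM summed over 11 genes. Judged by sex-linked transcripts, 11 libraries were male and 4 female. The female ones were GFP replicates 4 and 5, ATF4 replicate 2 and DDIT3 replicate 2. SMART-Seq3 is named for GFP replicate 5, where the labels of the other 14 libraries name SMART-Seq2.

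In the ATF4 group, 14 of the 36 tested members were higher than with GFP and 2 were lower by edgeR's quasi-likelihood test at an adjusted p below 0.05. Of all 11814 genes tested, 32.2% were called in this comparison, 16.5% higher and 15.6% lower, against 44.4% of the members, 38.9% higher and 5.56% lower. The median log2 difference was 0.19 over the members and 0.02 over all genes. Leaving out Atf4 and Ddit3, whose counts can include vector RNA, 12 members were higher and 2 lower of 34. The libraries of the ATF4 and GFP groups did not overlap for 13 members, or 36.1%, against 21.4% of all genes. Of these, 12 lay higher with ATF4 (11.7% of all genes) and 1 lower (9.79%). Without Atf4 and Ddit3 the groups did not overlap for 11 of the 34, or 32.4%, 10 higher and 1 lower.

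With the DDIT3 vector Ddit3 itself was called higher against GFP, and none of the other 35 tested members was called. Over all genes, 0.863% were called between DDIT3 and GFP, 0.525% higher and 0.339% lower. Leaving out Atf4 too, edgeR gave 1 of the remaining 34 members higher at an unadjusted p below 0.05, Mafk, and 2 lower, Creb3l1 and Jun. Of all 11814 genes tested, 606 were higher and 541 lower at that unadjusted threshold. By adjusted p, DESeq2 and limma-voom each also called 0 of the 34. With the replicate number as a block, 183 genes were higher and 139 lower in place of 62 and 40, and Ddit3 was again the 1 member called. With the 2 factors compared directly, 12 members were higher with ATF4 than with DDIT3 and 2 were lower, where 33.8% of all genes were called, 17.8% higher and 16% lower. The 12 include Atf4 and the 2 include Ddit3, the vector genes. Leaving these out, 11 members were higher and 1 lower of 34. The libraries of DDIT3 and GFP did not overlap for Ddit3 alone among the members, against 2.86% of all genes, 1.68% higher and 1.18% lower. Those of ATF4 and DDIT3 did not overlap for 9 members higher with ATF4 and 2 lower, against 22.6% of all genes, 12.3% higher and 10.3% lower. Without Atf4 and Ddit3 these were 8 higher and 1 lower, or 26.5% of the 34. Both comparisons with GFP share the same 5 control libraries.

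**Figure D1:**
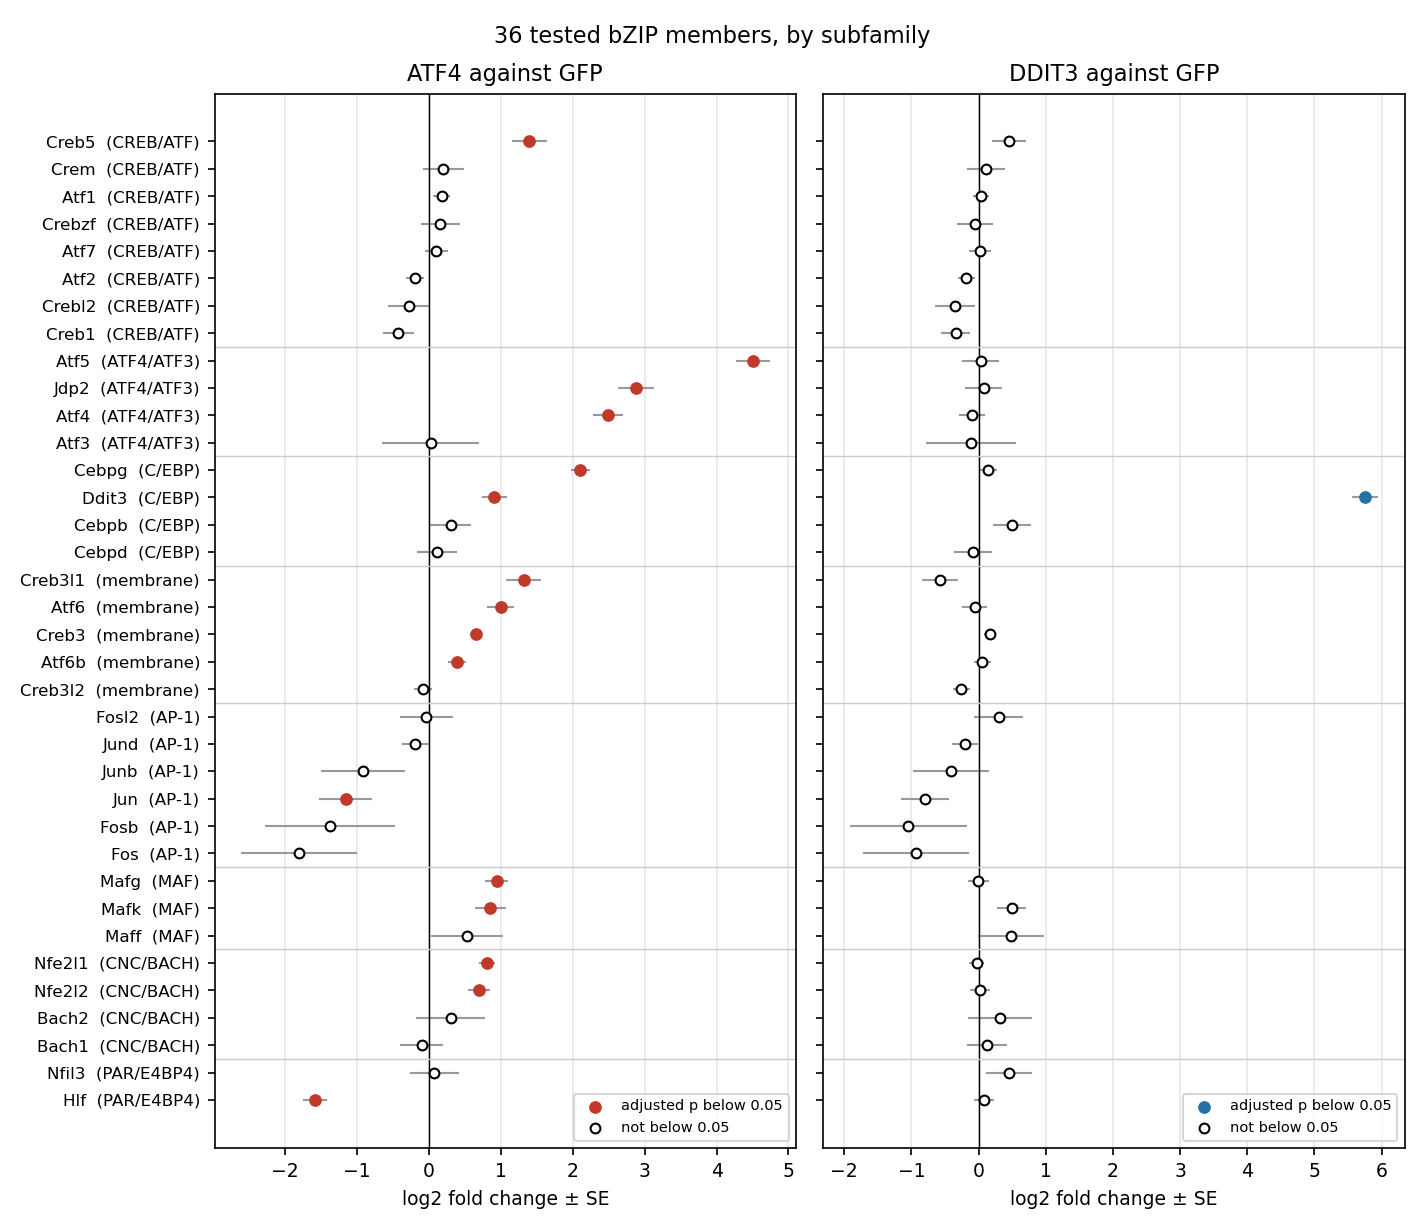
Log2 differences of the 36 tested members (horizontal axis) for ATF4 against GFP and DDIT3 against GFP, with bars of 1 standard error derived from the edgeR test. Members are listed on the vertical axis and filled points have an adjusted p below 0.05. Atf5 at 4.51 and Jdp2 at 2.88 lie farthest right for ATF4 after the vector genes are set aside, and for DDIT3 only Ddit3, at 5.75, stands clear of 0 by the adjusted test.

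The genes carried by the vectors came first, since they check the labels. Atf4 (chr15:80255184-80257541, forward strand in mm10) was measured at 82.1, 79.5, 51.3, 73.5 and 69.4 CPM in GFP replicates 1 to 5. In the ATF4 libraries it was 398, 538, 351, 359.6 and 352 CPM, and in the DDIT3 libraries 73.1, 66.2, 101, 48.3 and 43.6 CPM. All ATF4 libraries lay above all others, while those of DDIT3 overlapped those of GFP. The log2 difference was 2.49 ± 0.21 for ATF4 against GFP (edgeR adjusted p = 4.14e-08) and -0.10 ± 0.20 for DDIT3 against GFP (edgeR adjusted p = 0.946). The counts do not separate vector RNA from the cell's own.

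Ddit3 (chr10:127290774-127296288, forward strand), which encodes CHOP, stood at 16.6, 15.8, 15.8, 16.5 and 13.4 CPM with GFP. With the DDIT3 vector it reached 1073, 676, 971, 838 and 664 CPM, a log2 difference of 5.75 ± 0.20 from GFP (edgeR adjusted p = 2.3e-12), or 54.0-fold. With ATF4 the libraries held 21.7, 36.8, 38.5, 25.97 and 24.4 CPM, each above every GFP library. That difference was 0.91 ± 0.17 on the log2 scale (edgeR adjusted p = 0.00061). Exons of Ddit3 overlap those of Mars, the methionyl-tRNA synthetase gene, in the GENCODE annotation. Mars was itself 2.05 ± 0.08 higher on the log2 scale with ATF4 than with GFP (391 ± 23.6 against 94.3 ± 4.98 CPM, SD, n = 5). The library kit does not mark strand, and how reads over both genes were counted is not stated. Whether Mars reads are part of the Ddit3 count with ATF4 was not tested. With DDIT3, Mars stood at 95.1 ± 3.197 CPM. The Ddit3 count with ATF4 was far under that with the DDIT3 vector. ATF4 against DDIT3 was -4.84 ± 0.19 on the log2 scale (edgeR adjusted p = 6.75e-13).

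**Figure D2:**
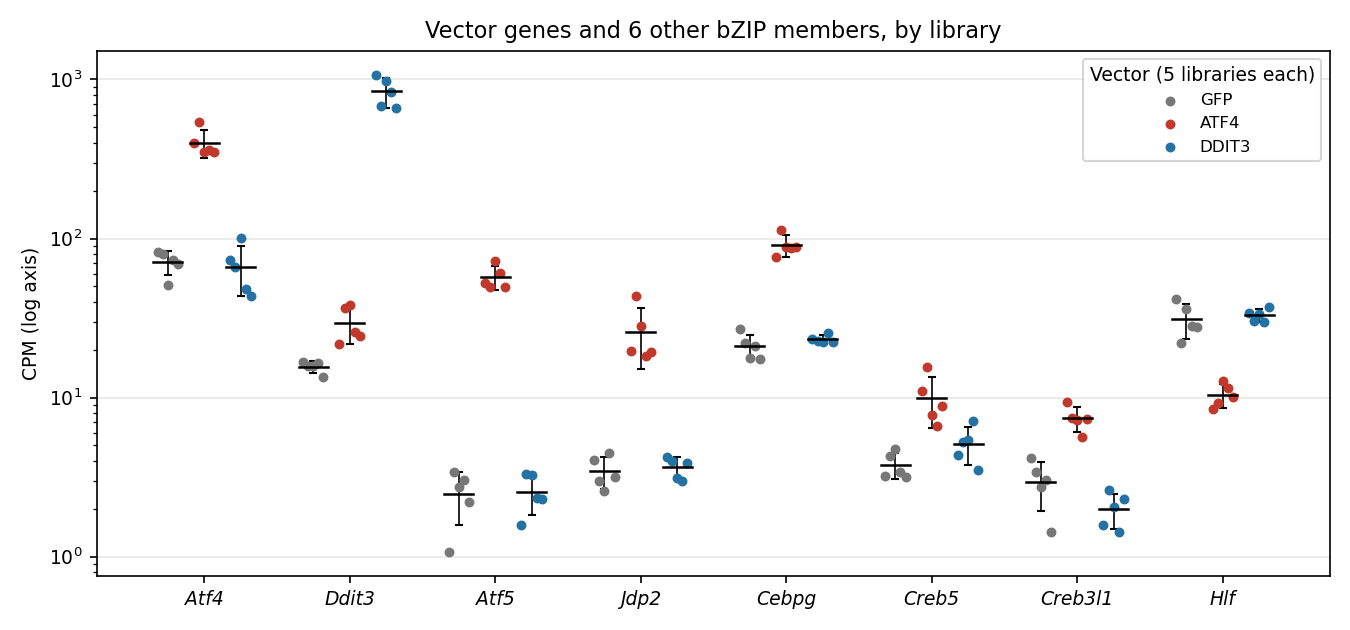
CPM of the vector genes and 6 other members in each of the 15 libraries (points, coloured by vector; bars are the mean ± SD of 5 libraries; log vertical axis). The 5 ATF4 libraries lie apart from the other 10 for Atf4, Atf5, Jdp2 and Cebpg and below them for Hlf, and the DDIT3 libraries overlap those of GFP for each of these 5 genes.

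The members grouped here with Atf4 were Atf5, Jdp2 and Atf3. Of these, Atf5 and Jdp2 rose with ATF4 and Atf3 was not called. Atf5 (chr7:44812256-44816658, reverse strand) encodes a factor that, like ATF4, is translated under stress through upstream reading frames. It was near the bottom of the measured range with GFP, at 1.07, 3.39, 2.76, 3.03 and 2.21 CPM. In the ATF4 libraries it was 52.6, 49.8, 72.5, 60.7 and 49.8 CPM and in the DDIT3 libraries 1.57, 3.33, 3.26, 2.34 and 2.29 CPM. Every ATF4 library was far above every other library, and the DDIT3 and GFP libraries overlapped. The log2 difference for ATF4 against GFP was 4.51 ± 0.23, 22.7-fold (edgeR adjusted p = 3.47e-11), and for DDIT3 against GFP it was 0.03 ± 0.27. Exons of Nup62 overlap Atf5. Nup62, a nuclear pore gene, differed by 0.31 ± 0.15 with ATF4 (edgeR adjusted p = 0.121).

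Jdp2 (chr12:85599027-85639878, forward strand) encodes a repressor that pairs with Jun proteins and with CHOP. Its level was 4.02, 2.997, 2.60, 4.48 and 3.16 CPM with GFP, 19.5, 43.4, 28.1, 18.2 and 19.3 CPM with ATF4 and 4.24, 4.02, 3.14, 2.99 and 3.91 CPM with DDIT3. The lowest ATF4 library was several times above the highest of the other 10. ATF4 exceeded GFP by 2.88 ± 0.25 on the log2 scale, 7.37-fold (edgeR adjusted p = 6.61e-08), and DDIT3 differed from GFP by 0.08 ± 0.27.

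Jdp2 is also 1 of the 3 members whose promoter window holds the letters of an ATF4-C/EBP composite element, TGATGNAA. RefSeq promoter windows of GRCm38.p6, from 250 bases before to 50 after each start, were matched for 37 of the 48 members and searched on both strands. The letters occurred in Jdp2, Creb5 and Atf3, that is 3 of 37, against 4.51% of all 27025 genes with a window (3.97% of 32851 windows). The stretches are shown because these 3 genes, 2 of them higher with ATF4, carry the element known to be read by ATF4 with a C/EBP partner. Capitals mark the composite letters or their reverse complement and, in the first Creb5 stretch, also the cyclic AMP response element TGACGTCA. The matches begin 33 bases before a later start of Jdp2, 28 and 84 bases before the 2 starts of Creb5 and 110 bases before that of Atf3. The windows of the other Jdp2 starts did not hold the letters. In the GENCODE annotation 16 and 9 bases of the 2 Creb5 stretches lie in exons and none of the Jdp2 or Atf3 stretches, which lie between exons inside the bounds of these genes.
Jdp2, chr12:85599286-85599415, forward strand: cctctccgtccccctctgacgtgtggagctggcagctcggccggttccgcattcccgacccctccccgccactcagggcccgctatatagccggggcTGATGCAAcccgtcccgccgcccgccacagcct
Creb5, chr6:53287256-53287285, forward strand: cgTGACGTCAccgggggggTGATGTAAtgc
Creb5, later start, chr6:53573279-53573308, forward strand: gggccagcgcaTTACATCAtctcttggcct
Atf3, chr1:191183425-191183454, reverse strand: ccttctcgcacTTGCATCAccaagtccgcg
The letters were not in the windows of Atf5, Cebpg, Atf4 or Ddit3, which says nothing of other positions. A match is a description of the letters and not evidence of binding.

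Atf3, the third of these genes, encodes a stress-induced repressor. It measured 135, 162, 28.2, 131 and 100.4 CPM with GFP, 49.1, 316, 40.3, 103 and 60.2 CPM with ATF4 and 142, 153, 142, 60.1 and 15.5 CPM with DDIT3. The groups overlapped throughout, and within each vector the highest library was several times above the lowest. ATF4 against GFP was 0.03 ± 0.67 on the log2 scale (edgeR adjusted p = 0.982) and became -0.82 without ATF4 replicate 2, the library with the highest value. DDIT3 against GFP was -0.12 ± 0.67.

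In the C/EBP family, the partners of both ATF4 and CHOP, Cebpg rose with ATF4 and no C/EBP gene was called with DDIT3. Cebpg (chr7:35046422-35056573, reverse strand) encodes a short C/EBP that lacks a classical activation domain and pairs with ATF4. It was 26.8, 21.9, 17.8, 21.2 and 17.4 CPM with GFP and 76.4, 114, 88.4, 87.1 and 88.0 CPM with ATF4. With DDIT3 it was 23.5, 22.6, 22.3, 25.6 and 22.5 CPM, inside the range of GFP. The ATF4 libraries were all higher than any other, by 2.11 ± 0.13 on the log2 scale over GFP, 4.31-fold (edgeR adjusted p = 5.26e-10), while DDIT3 against GFP was 0.15 ± 0.13 (edgeR adjusted p = 0.803).

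Cebpb, the C/EBP gene induced by stress and cytokines, had the highest level per length of the family with all 3 vectors. Its values were 93.5, 53.0, 88.7, 44.4 and 49.8 CPM with GFP, 91.3, 122, 76.1, 48.3 and 69.0 CPM with ATF4 and 136, 108, 68.4, 95.8 and 56.7 CPM with DDIT3. The ranges overlapped in all comparisons, with log2 differences of 0.30 ± 0.28 for ATF4 (edgeR adjusted p = 0.433) and 0.50 ± 0.28 for DDIT3 (edgeR adjusted p = 0.621). Cebpd, induced in acute inflammation, was 6.30, 4.56, 7.97, 3.56 and 2.37 CPM with GFP, 5.60, 6.60, 5.51, 3.55 and 5.59 with ATF4 and 4.72, 4.85, 4.83, 5.86 and 3.10 with DDIT3. It overlapped among the vectors, with log2 differences from GFP of 0.12 ± 0.27 for ATF4 and -0.08 ± 0.28 for DDIT3. Cebpa, known from liver and fat, had 36 counts in all 15 libraries together (0.268, 0.782, 0.46, 0.263 and 0.158 CPM with GFP, 0.13, 0.147, 0.672, 0.426 and 0.254 with ATF4 and 0.242, 0.277, 0.362, 0 and 0.404 with DDIT3), and Cebpe, known from granulocytes, had 0.

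The mix of transcripts differed with the vector. Per kilobase of gene length, Cebpg made up 5.69%, 9.75% and 12.6% (lowest, median and highest library) of summed C/EBP RNA with GFP, and 20.5%, 26.1% and 35.4% with ATF4. With DDIT3 the share was 5.12%, 7.60% and 10.9%. Only the ATF4 range was separate from the other 2. The level of Ddit3 per kilobase relative to the summed C/EBP genes was 0.270, 0.407 and 0.530 with GFP and 0.314, 0.417 and 0.613 with ATF4, which overlap. With the DDIT3 vector that ratio was 9.86, 13.4 and 21.2, so Ddit3 RNA exceeded the RNA of its C/EBP partners in each of those 5 libraries. These ratios use the length of the mouse gene, and the length of the vector transcript is not given in the sources used here. They are ratios of RNA and not of protein.

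**Figure D3:**
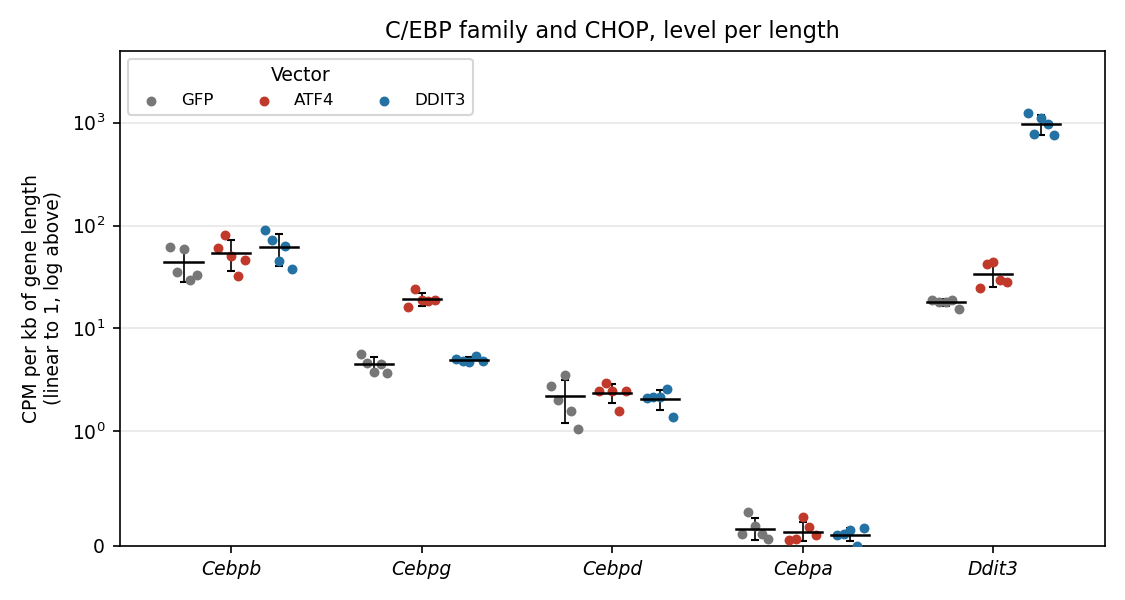
Level per length (CPM per kilobase of gene; vertical axis linear to 1 and logarithmic above) of the C/EBP genes with counts and of Ddit3 in each library, with mean ± SD bars of 5 libraries per vector. Cebpg separates the ATF4 libraries, Cebpb and Cebpd overlap among the vectors, and Ddit3 in the DDIT3 libraries lies above every C/EBP gene.

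Of the 8 factors grouped as the CREB and ATF2 type, all tested, Creb5 was the one called by the test without replicate numbers. Creb5 (chr6:53287270-53700376, forward strand) encodes a factor that pairs with Jun or CREB proteins. It was 3.22, 4.30, 4.75, 3.42 and 3.16 CPM with GFP, 10.9, 15.5, 7.80, 6.67 and 8.89 CPM with ATF4 and 4.36, 5.27, 5.43, 7.16 and 3.50 CPM with DDIT3. All ATF4 libraries exceeded all GFP libraries, and one DDIT3 library, replicate 4, reached into the ATF4 range. The log2 difference was 1.40 ± 0.24 for ATF4 against GFP (edgeR adjusted p = 0.000279), 0.45 ± 0.25 for DDIT3 against GFP (edgeR adjusted p = 0.621) and 0.95 ± 0.24 for ATF4 against DDIT3 (edgeR adjusted p = 0.00477). Creb1, the cyclic AMP response factor, ran 26.3 to 48.2 CPM with GFP and 19.6 to 36.1 with ATF4, a log2 difference of -0.42 ± 0.22 (edgeR adjusted p = 0.143), and it was called lower with the replicate number as a block. Atf1, Atf2, Atf7, Crem, Crebl2 and Crebzf lay between -0.27 and 0.20 on the log2 scale for ATF4 against GFP and were not called.

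The membrane-bound factors of the endoplasmic reticulum included 5 tested genes: Atf6, Atf6b, Creb3 and Creb3l1 were called higher with ATF4 than with GFP and Creb3l2 was not, where 16.5% of all genes were called higher. With DDIT3 none of the 5 was called by edgeR, DESeq2 or limma-voom. At an unadjusted edgeR p below 0.05, 0 were higher and 1 lower, against 606 and 541 of all 11814 genes. Atf6 (chr1:170704674-170867771, reverse strand), whose cleaved product switches on chaperone genes, was 156, 148, 151, 189 and 282 CPM with GFP and 432, 380.4, 257, 366 and 417 CPM with ATF4. With DDIT3 it was 158, 182, 142, 164 and 243 CPM. GFP replicate 5 lay above ATF4 replicate 3, the lowest ATF4 library, and below the other ATF4 libraries. The overlap of these groups rests on this pair of libraries. The log2 difference was 1.002 ± 0.19 for ATF4 (edgeR adjusted p = 0.000563) and -0.06 ± 0.19 for DDIT3. With 1 library left out, the ATF4 difference ran from 0.929 to 1.201, the highest without GFP replicate 5.

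Creb3l1, which encodes a factor of secretory and matrix-forming cells, was a low-count gene in these heart cells. Its values were 4.16, 3.39, 2.76, 3.03 and 1.42 CPM with GFP, 9.38, 7.48, 7.26, 5.68 and 7.37 CPM with ATF4 and 1.57, 2.64, 2.05, 1.43 and 2.29 CPM with DDIT3. All ATF4 libraries were above all others. The log2 differences were 1.32 ± 0.25 for ATF4 against GFP (edgeR adjusted p = 0.000491), -0.58 ± 0.27 for DDIT3 against GFP (edgeR adjusted p = 0.503) and 1.89 ± 0.25 for ATF4 against DDIT3 (edgeR adjusted p = 1.81e-05).

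Creb3 (chr4:43562332-43567060, forward strand), a factor of the endoplasmic reticulum that is cut in the Golgi, had the smallest spread of the 4. It measured 31.8, 34.0, 34.0, 32.8 and 31.9 CPM with GFP, 48.3, 55.1, 50.4, 53.6 and 51.9 with ATF4 and 37.2, 33.8, 39.9, 39.6 and 33.9 with DDIT3. The ATF4 libraries stood apart, 0.66 ± 0.09 above GFP on the log2 scale (edgeR adjusted p = 1.44e-05), and DDIT3 against GFP was 0.17 ± 0.09 (edgeR adjusted p = 0.583). Its exons overlap those of Tln1 and Gba2, which differed by 0.29 ± 0.12 and -0.26 ± 0.16 with ATF4. Atf6b, the weaker relative of Atf6, was 21.9, 25.3, 25.1, 26.9 and 24.2 CPM with GFP, 32.3, 24.9, 35.4, 30.7 and 38.6 with ATF4 and 21.5, 23.9, 28.6, 28.8 and 25.5 with DDIT3. Its groups overlapped, and the difference of 0.39 ± 0.12 for ATF4 against GFP (edgeR adjusted p = 0.0222) was no longer called without ATF4 replicate 5 (edgeR adjusted p = 0.0697) or without GFP replicate 1 (edgeR adjusted p = 0.0562). The call for ATF4 against DDIT3, 0.34 ± 0.12 (edgeR adjusted p = 0.0443), was lost in 14 of 25 alternative settings, with adjusted p up to 0.129. Creb3l2 differed by -0.08 ± 0.13 with ATF4.

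Of 7 tested CNC, BACH and MAF members, 4 rose with ATF4 against GFP, Nfe2l1, Nfe2l2, Mafg and Mafk, where 16.5% of all genes were called higher. Nfe2l1, which encodes the endoplasmic reticulum-anchored regulator of proteasome genes, had the highest level per length in the GFP libraries after Jun and Fos, at 117 ± 14.5 CPM per kilobase (SD, n = 5). Its CPM (chr11:96817414-96829968, reverse strand) were 558, 468, 542, 647 and 622 with GFP, 1051, 776, 948, 1155 and 1037 with ATF4 and 575, 549, 499, 577 and 589 with DDIT3. The ATF4 libraries lay above the other 10, with a log2 difference from GFP of 0.81 ± 0.11 (edgeR adjusted p = 2.62e-05), and DDIT3 against GFP was -0.02 ± 0.11.

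Nfe2l2 (chr2:75675513-75704641, reverse strand) encodes NRF2, which is held back by KEAP1 until oxidative stress. It was 117, 103, 118, 88.6 and 96.4 CPM with GFP, 155, 227, 137, 159 and 169.7 CPM with ATF4 and 144, 105, 98.8, 98.0 and 83.4 CPM with DDIT3. The ATF4 libraries were above those of GFP, while one DDIT3 library, replicate 1, lay inside the ATF4 range. The log2 differences were 0.70 ± 0.15 for ATF4 (edgeR adjusted p = 0.00175) and 0.02 ± 0.15 for DDIT3. The repressors that share the same sites, Bach1 and Bach2, differed by -0.10 ± 0.30 and 0.30 ± 0.48 with ATF4 and were not called (edgeR adjusted p = 0.837 and 0.663).

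Mafg (chr11:120625117-120633600, reverse strand), a small MAF that supplies the DNA-binding partner of the CNC factors, was 32.3, 31.0, 34.5, 30.02 and 30.8 CPM with GFP, 62.6, 76.1, 72.9, 45.7 and 47.9 CPM with ATF4 and 33.9, 35.6, 35.6, 31.8 and 21.6 CPM with DDIT3. Every ATF4 library exceeded all others, by 0.94 ± 0.16 on the log2 scale over GFP (edgeR adjusted p = 0.000154), and DDIT3 against GFP was -0.00101 ± 0.16. Sirt7, whose exons overlap Mafg, differed by 0.56 ± 0.25 with ATF4 (edgeR adjusted p = 0.0863). Mafk (chr5:139791513-139802653, forward strand), its relative, was 63.8, 64.8, 47.9, 49.4 and 40.0 CPM with GFP, 108, 131, 66.7, 87.4 and 89.5 CPM with ATF4 and 119, 81.7, 60.6, 63.4 and 50.1 CPM with DDIT3. ATF4 lay above GFP by 0.86 ± 0.22 (edgeR adjusted p = 0.00629), and DDIT3 differed from GFP by 0.49 ± 0.22 (edgeR adjusted p = 0.457). ATF4 against DDIT3 was 0.36 ± 0.22 (edgeR adjusted p = 0.215), which became a call with the replicate number as a block (edgeR adjusted p = 0.0156) and without DDIT3 replicate 1 (edgeR adjusted p = 0.0258). Maff was measured at 0.948 to 5.08 CPM with GFP and 1.99 to 6.60 with ATF4 (0.53 ± 0.50, not called). The 3 small MAF genes summed to 33.5 to 44.7 CPM per kilobase with GFP, 60.0 to 96.4 with ATF4 and 31.6 to 65.9 with DDIT3. That sum separates the ATF4 libraries from those of GFP and not from those of DDIT3.

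**Figure D4:**
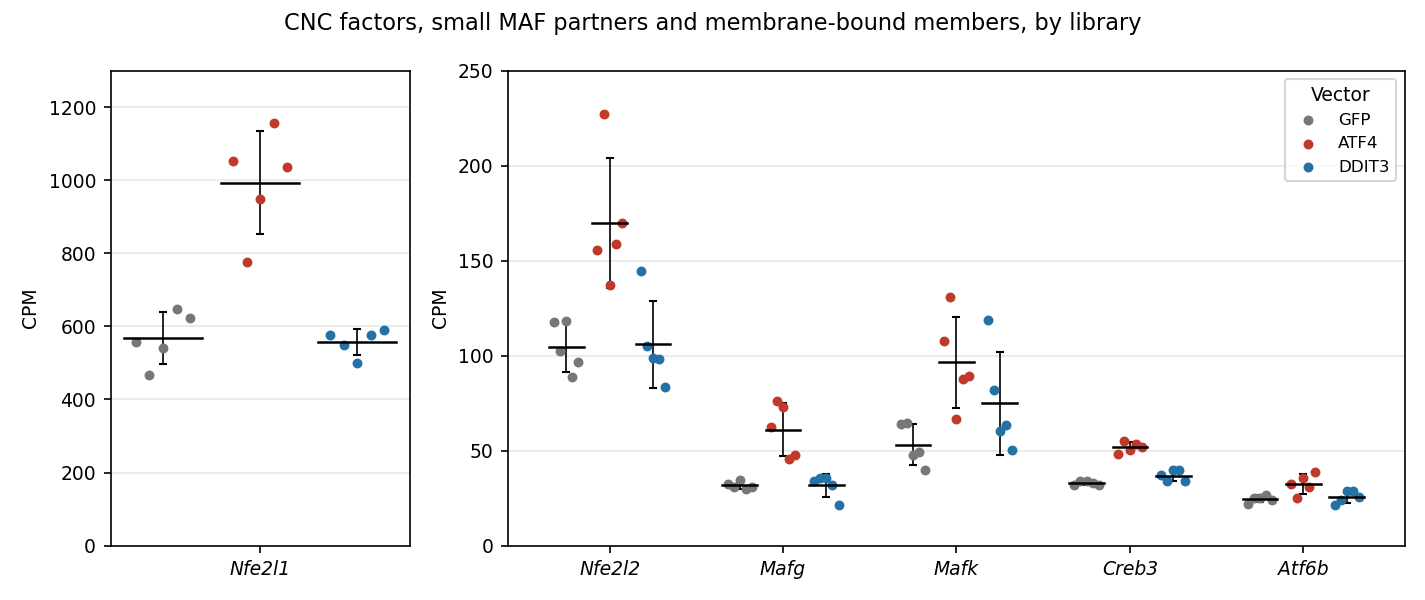
CPM of Nfe2l1 (left) and of Nfe2l2, Mafg, Mafk, Creb3 and Atf6b (right) in each library, by vector, with mean ± SD bars of 5 libraries; vertical axes start at 0. For Nfe2l1, Mafg and Creb3 the ATF4 libraries lie above the other 10, whereas DDIT3 replicate 1 reaches into their range for Nfe2l2 and DDIT3 replicates 1 and 2 for Mafk.

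The letters of an antioxidant response element, TGACNNNGC, were in the promoter windows of 8 of the 37 matched members: Nfe2l2, Mafg, Mafk, Maff, Atf1, Atf6b, Cebpb and Crebzf. Over all genes with a window, 14% held them. The cyclic AMP response element TGACGTCA was in 3 (Creb5, Hlf and Maff; 2.03% of genes), the AP-1 letters TGANTCA in 3 (Creb3l3, Creb5 and Ddit3; 8.97%) and the D-box TTATGTAA in Jdp2 (1.11%). A palindromic C/EBP site, TTGCGCAA, was in none of the 37 windows (0.207% of genes), nor was the endoplasmic reticulum stress element in its full form (0.137%). All motifs were searched on both strands and may share bases with one another.

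The AP-1 genes, which encode the Fos and Jun subunits, spread widely between libraries of 1 vector. Jun (chr4:95049034-95052222, reverse strand) was 606, 629.8, 277, 355 and 242 CPM with GFP, 176, 333, 168, 157 and 115 CPM with ATF4 and 166, 257, 466, 189 and 139 CPM with DDIT3. GFP replicates 1 and 2 were the highest of all, and the groups overlapped. Jun fell by 1.16 ± 0.37 on the log2 scale with ATF4 against GFP (edgeR adjusted p = 0.0238). The call was lost in 6 of 25 alternatives, with an adjusted p of up to 0.0632: with no filter on low counts, and without ATF4 replicate 1, 4 or 5 or GFP replicate 1 or 2. DDIT3 against GFP was -0.80 ± 0.36 (edgeR adjusted p = 0.49).

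Fos, the subunit that needs a Jun partner, was 547, 480.0, 20.1, 218 and 107 CPM with GFP, 105, 121, 34.0, 100.1 and 34.7 CPM with ATF4 and 93.9, 370.4, 170.4, 48.8 and 38.0 CPM with DDIT3. Values within the GFP group alone spanned the whole range of the 15 libraries. The log2 difference of -1.80 ± 0.81 for ATF4 was not called (edgeR adjusted p = 0.105), and it was called without GFP replicate 3, the lowest library (-2.10, edgeR adjusted p = 0.0335). Fosb, Junb, Jund and Fosl2 differed by -1.37 ± 0.90, -0.91 ± 0.58, -0.18 ± 0.19 and -0.03 ± 0.37 for ATF4 against GFP, and none was called.

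Immediate-early and heat shock genes, of the kind that tissue digestion can induce, were highest in the same libraries. Summed over 18 listed genes, which include no member, they were 2989.8 and 2918 CPM in GFP replicates 1 and 2 and 784, 1611 and 971 CPM in replicates 3, 4 and 5. The ATF4 libraries ran from 821 to 2050 CPM and the DDIT3 libraries from 677 to 2347 CPM. The 2 GFP libraries with the highest Fos and Jun were thus also the 2 highest on this list. Of its 17 tested genes, Gadd45b was lower with ATF4 (-1.70 ± 0.39, edgeR adjusted p = 0.00302) and no other was called, where 15.6% of all genes were called lower. The part of cell isolation in the Jun, Fos and Atf3 values was not tested.

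**Figure D5:**
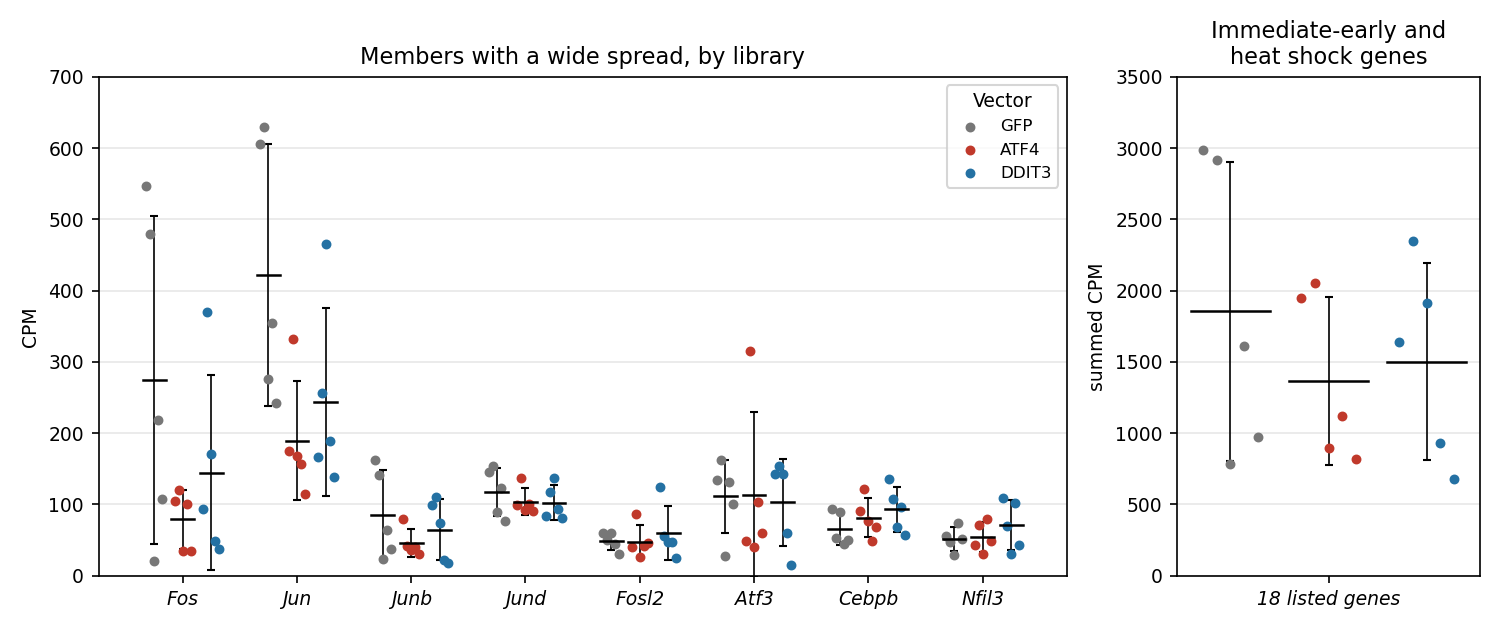
CPM of Fos, Jun, Junb, Jund, Fosl2, Atf3, Cebpb and Nfil3 in each library (left) and the summed CPM of 18 immediate-early and heat shock genes (right), by vector, with mean ± SD bars of 5 libraries; vertical axes start at 0. GFP replicates 1 and 2 are the highest for Fos, Jun and the summed list, and the vectors overlap in every column.

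Hlf fell with ATF4. Hlf (chr11:90336536-90390895, reverse strand) encodes a PAR-type bZIP factor with a daily rhythm that binds D-box sites. Its values were 41.4, 22.02, 36.1, 28.0 and 28.0 CPM with GFP, 8.46, 9.24, 12.8, 11.5 and 10.03 CPM with ATF4 and 34.3, 30.1, 33.4, 29.9 and 36.9 CPM with DDIT3. All ATF4 libraries lay below all others, with a log2 difference from GFP of -1.58 ± 0.16 (edgeR adjusted p = 8.14e-07) and from DDIT3 of -1.66 ± 0.16 (edgeR adjusted p = 3.96e-07). DDIT3 against GFP was 0.08 ± 0.15. Nfil3, which encodes the repressor of the same sites, was 55.8, 46.7, 29.4, 74.3 and 51.0 CPM with GFP, 42.6, 71.4, 29.99, 79.9 and 48.5 CPM with ATF4 and 109, 69.1, 30.5, 102 and 42.4 CPM with DDIT3. Its groups overlapped, with log2 differences of 0.08 ± 0.34 for ATF4 and 0.46 ± 0.34 for DDIT3 (edgeR adjusted p = 0.887 and 0.76).

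Tef and Dbp, the other PAR-type genes, are not among the 48 and were listed separately. Tef differed by -0.53 ± 0.19 with ATF4 (111 ± 20.8 against 159.9 ± 37.7 CPM, SD, n = 5; edgeR adjusted p = 0.0387). Dbp differed by -0.61 ± 0.63 (edgeR adjusted p = 0.486) and was not called. Of 11 tested clock genes and D-box targets, Nr1d2 was called lower (-0.47 ± 0.17, edgeR adjusted p = 0.0429) and none was called higher. That is 9.09% of them called, all lower, where 15.6% of all genes were called lower. Hour of sampling is not given in the labels, and its part in the Hlf result was not tested.

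In the GFP libraries the order of levels per length was led by Jun (132 ± 57.7 CPM per kilobase, SD, n = 5), Fos (131 ± 110.0) and Nfe2l1 (117 ± 14.5), which do not differ beyond their spread. Atf3 (56.3 ± 25.98), Junb (46.5 ± 34.2), Cebpb (43.8 ± 15.5), Nfe2l2 (42.4 ± 5.28), Atf4 (41.2 ± 7.05) and Jund (40.9 ± 11.7) followed and also lay within one another's spread. Ddit3 was at rank 15 with 17.9 ± 1.47 CPM per kilobase, and Cebpg (4.47 ± 0.812) and Atf5 (1.25 ± 0.452) were lower still. Gene lengths are those of the deposited table.

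The 12 members left out by the filter on low counts were nearly silent with all 3 vectors. They are Batf, Batf2 and Batf3, the lymphoid and myeloid partners of Jun; the large MAF genes Maf and Mafa; Nfe2 and Nfe2l3 of the CNC group; Creb3l3 and Creb3l4; Fosl1; Cebpa; and Cebpe. Cebpa had the most counts, 36 over the 15 libraries, and Cebpe had 0. No single library had more than 7 counts for any of them.

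Genes that act on or after the members were taken from lists. Of 17 tested targets of ATF4 and CHOP, 14 were higher with ATF4 than with GFP and none was lower, with a median log2 difference of 6.60 against 0.02 over all genes. Asns, the asparagine synthetase gene, went from 7.63 ± 0.841 to 1589 ± 151 CPM (SD, n = 5) and Phgdh, the first enzyme of serine synthesis, from 0.106 ± 0.172 to 346 ± 40.5 CPM. With DDIT3, edgeR, DESeq2 and limma-voom each called 0 of the 17, and 2 were higher with the replicate number as a block. At an unadjusted edgeR p below 0.05, 3 were higher and 1 lower, against 606 and 541 of all 11814 genes. Asns was at 10.8 ± 2.63 CPM with DDIT3, where Ddit3 itself was at 844 ± 179.5 CPM.

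Of 13 NRF2 targets, 10 were higher with ATF4 and none lower, with a median of 0.76. Hmox1, heme oxygenase, differed by 4.17 ± 0.21 and Srxn1, sulfiredoxin, by 2.43 ± 0.16 (edgeR adjusted p = 3.47e-11 and 1.72e-09). Of 15 targets of ATF6 and XBP1, 4 were higher (Herpud1, Dnajb9, Sel1l and Edem1) and none lower, where 16.5% of all genes were called higher. The log2 differences of the 15 ran from -0.26 to 1.48 with a median of 0.29, and 11 were above 0 and 4 below. With the replicate number as a block the counts were 6 higher and 1 lower. Hspa5, the chaperone BiP and a standard ATF6 target, was 1227 ± 171 CPM with ATF4 and 1228 ± 218 with GFP, a log2 difference of -0.00121 ± 0.14 (edgeR adjusted p = 0.996). Xbp1, the bZIP gene spliced by IRE1, was higher by 0.98 ± 0.14 (edgeR adjusted p = 2.67e-05).

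Among 28 tested regulators of the family, 4 rose with ATF4 against GFP and 8 fell, or 42.9% called against 32.2% of all genes. The share that rose was near the 16.5% of all genes. Trib3, a pseudokinase that binds ATF4 and CHOP, differed by 7.57 ± 0.23 (edgeR adjusted p = 2.06e-14), Nupr1, a stress cofactor, by 8.59 ± 0.29 (edgeR adjusted p = 1.05e-13), and Ern1, which encodes IRE1, by 2.05 ± 0.17 (edgeR adjusted p = 4.96e-08). Ppp1r15b, a subunit of the eIF2alpha phosphatase, was the fourth. The 8 that fell were the stress kinase genes Mapk8, Mapk9, Mapk10 and Mapk14, with Mapkapk2, Prkaca and the ubiquitin ligase genes Btrc and Fbxw7. With DDIT3, edgeR, DESeq2 and limma-voom each called 0 of the 28. At an unadjusted edgeR p below 0.05, 0 were higher and 2 lower, against 606 and 541 of all 11814 genes.

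ATF4 replicate 2 was the highest of the 5 ATF4 libraries for 24 of the 36 tested members, among them Atf4 itself, a count not made over all genes. It was also the only female library of its group and had the fewest counts of all libraries, 6217744. Without it the counts for ATF4 against GFP were again 14 higher and 2 lower, as they were with sex as a term. The authors' deposited table, made with their own method, called the same 14 members higher and the same 2 lower for ATF4 against GFP, and Ddit3 alone for DDIT3 against GFP.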

How the data were processed

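RNA was measured in 15 libraries, 5 per vector, made, per the labels' protocols, with a SMART Seq v4 kit and a Nextera XT kit. The submitters' processing notes name STAR, featureCounts, DESeq2 and DESeq and the build mm10, and their settings were not found in the labels. The authors deposited whole-number read counts of 23337 genes, with a gene length column (other unit) used for levels per kilobase. They also deposited tables of their comparisons with GFP, which per the file headers hold a mean signal (mean normalised count), a log2 fold change, a test score and p-values, and which are used only where the authors' deposited table is named. No column was left unmapped.

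Groups and replicate numbers came from titles. Counts were tested with edgeR 4.0.16 (quasi-likelihood, robust, TMM, filterByExpr) in 1 fit of all 15 libraries with 1 term, the vector, which left 12 residual degrees of freedom and a common biological variation of 19.6%. Benjamini-Hochberg adjustment ran over the 11814 genes kept, 11523 having been removed, with a threshold of 0.05. Differences are log2 with standard errors, and errors of levels are SD over 5 libraries. For edgeR the standard error was derived as the absolute log2 difference divided by the square root of the F statistic of the test. With 6217744 to 8317249 counts per library, low genes are imprecise. Pairs of libraries of 1 group differed by more than sampling noise (chi-square per degree of freedom 8.60 to 50.4), so that none was counted as a copy.

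Same-numbered libraries deviated together, with correlations of 0.205 to 0.511 for DDIT3 with GFP, 0.135 to 0.497 for ATF4 with DDIT3 and 0.0783 to 0.386 for ATF4 with GFP, where 4 of 5 pairs were above 0.1. The pairing comes from these correlations, since the labels do not say what a number marks. A fit with the replicate number as a block was therefore an alternative, beside DESeq2 1.42.0 and limma-voom (limma 3.58.1), other scalings and filters, sex, and each library left out.

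Members, gene lists and tests were chosen with earlier results of these data known. By the rule for named genes, each library's value is given for the vector genes, set partners and every member called in a comparison (22 in all). Of each other list, up to 3 called genes with the lowest p are described with values, but none of the marker lists or of the ATF6 and XBP1 targets. Dbp, Hspa5, further called genes of those lists, named without values, the exon-overlapping genes and the uncalled members named singly fall outside it and were chosen after their values were seen. Promoter sequences are those of RefSeq, GRCm38.p6, and gene positions those of GENCODE on mm10, with matching of motif letters in Python 3.11.15.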

Additional observations from a re-analysis of the deposited data

Results flagged for a closer look

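In 66 groups of 5 libraries checked (22 members, 3 vectors), 5 had 1 library far from the other 4, where about 1 in 20 groups, or 3.3, would by chance. Of the 5, 3 were in ATF4 replicate 2, the female library of that group. It held the highest Atf4, 538 CPM against 351 to 398 in the other ATF4 libraries. The same library had the highest Atf3, 316 CPM against 40.3 to 103, and the highest Jun, 333 CPM against 115 to 176. Ddit3 was lowest in GFP replicate 5, the library whose label names SMART-Seq3, at 13.4 CPM against 15.8 to 16.6. Mafg was lowest in DDIT3 replicate 5, at 21.6 CPM against 31.8 to 35.6.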

How the results depend on the processing

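Across 25 alternative settings, 24 of them planned and 15 of them leaving out 1 library each, the members called higher with ATF4 than with GFP numbered 13 to 14 and with ATF4 than with DDIT3 11 to 13. Members called with DDIT3 against GFP numbered 1 higher and 0 lower throughout. The count of members lower with ATF4 than with GFP, 2 in the report, was 1 with no filter on low counts and 1 to 3 with a library left out, Fos being added without GFP replicate 3. Jun was lost with no filter on low counts, and without ATF4 replicate 1, 4 or 5 or GFP replicate 1 or 2, and the cause was not tested. With the replicate number as a block, that count was 3, Creb1 being added, and the members higher with ATF4 than with DDIT3 numbered 13, Mafk being added. The block changed no other count of members, and of the 11 clock genes and D-box targets it called 3 lower with ATF4 against GFP in place of 1, and of the 15 targets of ATF6 and XBP1 6 higher and 1 lower in place of 4 and 0. Of all 11814 genes, the block called 2557 higher and 2540 lower with ATF4 against GFP, in place of 1953 and 1848. Over all genes, DDIT3 against GFP gave 62 higher and 40 lower, against 127 and 101 by DESeq2, 183 and 139 with the block, and 35 to 89 and 19 to 57 with a library left out. Leaving out ATF4 replicate 2 and DDIT3 replicate 2 together, the female libraries of these groups, was chosen after seeing the data.

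Of 63 results for single members, 43 kept their direction and their side of the threshold in every setting. Of the others, 15 changed sign, none of which had been called. With a library left out, the log2 differences of these ran as follows. For ATF4 against GFP they were -0.82 to 0.24 for Atf3, -0.0551 to 0.34 for Cebpd and -0.10 to 0.25 for Nfil3. For DDIT3 against GFP they were -0.30 to 0.0205 for Atf4, -0.17 to 0.17 for Atf5, -0.36 to 0.16 for Atf3, -0.00671 to 0.19 for Jdp2, -0.25 to 0.15 for Cebpd and -0.19 to 0.15 for Atf6. They were -0.0463 to 0.11 for Mafg, -0.0871 to 0.0265 for Nfe2l1, -0.13 to 0.0914 for Nfe2l2 and -0.0217 to 0.21 for Hlf. For ATF4 against DDIT3 they were -0.71 to 0.36 for Atf3 and -0.66 to 0.0127 for Jun. Atf3 with ATF4 against GFP was -0.23 with limma-voom, -0.24 with the replicate block, -0.10 with sex as a term and -0.82 without the 2 replicates 2. Atf3 with ATF4 against DDIT3 was -0.0938 with the replicate block, -0.10 with sex as a term and -0.52 without the 2 replicates 2. Without those, Nfil3 with ATF4 against GFP was -0.04 and Atf5 with DDIT3 against GFP -0.08. Cebpd with DDIT3 against GFP was 0.00516 with limma-voom, and with sex as a term Atf6 was 0.0342 and Mafg 0.0230. Depth limits the 12 members left out by the filter, of which no library had more than 7 counts.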

Other observations

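Libraries differed in how often they were extreme among the tested members. DDIT3 replicate 5 was the lowest of its 5 libraries for 18 of the 36 members and GFP replicate 5 for 13 of the 36, while ATF4 replicate 5 was the lowest for 6. The same count over all genes was not made, so these need not be particular to the members. DDIT3 replicate 5 and GFP replicate 5 also had the fewest genes detected in their groups, 14050 and 13978. Summed per kilobase over the 46 members other than Atf4 and Ddit3, the libraries held 563 to 1097 CPM per kilobase with GFP, 741 to 1123 with ATF4 and 496 to 892 with DDIT3, so the total level of the family overlapped among the vectors. The ratio of Atf4 to Ddit3 per kilobase was 1.64 to 2.61 with GFP, 4.61 to 9.25 with ATF4 and 0.0291 to 0.0526 with DDIT3, ranges that did not overlap, with vector RNA included in both genes.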
